A study of Mus musculus with 21 samples.

Results

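RNA from inflamed-heart macrophages was compared with RNA from splenic monocytes in 6 of the 21 libraries of the series. The 3 CAWS R3 libraries (R3, CAWS) came from Ccr2-positive, MHC-II-high cardiac macrophages of mice challenged with CAWS, short for Candida albicans water-soluble complex, an extract of this fungus used to model Kawasaki disease. The 3 monocyte libraries came from Ccr2-positive monocytes sorted from the spleens of naive mice, for which the labels give no MHC-II gate. The libraries were taken by these labels and by no measured value. All mice were of the C57BL/6 background, and the sources used here do not state their age or the time after CAWS. Each library was made from an independent pool of mice, per the series design, so the spread between replicates is a spread between pools. Organ, cell type and CAWS differ together between the groups, and their parts in a difference cannot be told apart from these 6 libraries. The 3 libraries of naive R3 macrophages, the same cardiac sort from mice without CAWS, are therefore given beside them for part of the genes described. They share an organ and a sort with CAWS R3 and share the lack of CAWS with the monocytes.

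Classical monocytes leave the bone marrow carrying Ccr2 and Ly6C, circulate in the blood and are stored in the spleen. When they enter a tissue they lose Ly6C, and may take up the gene programme of macrophages: scavenger and complement receptors, lysosomal proteases, lipid carriers and, in part of them, MHC class II. In the heart, macrophages of this origin keep Ccr2 and stand beside long-lived resident macrophages, which carry Timd4, Lyve1 and Folr2 and are largely without Ccr2.

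Per library, the counts summed to between 12800136 and 14630186 in CAWS R3, 16118186 and 18708547 in the monocytes and 15116329 and 17471170 in naive R3. Levels are given in CPM, counts scaled to a common library size, on library sizes scaled by the trimmed mean of M-values (TMM), in the order of replicates 1, 2 and 3. Where a mean is given, it stands with its standard deviation (SD) over 3 libraries. 1 library stood apart before any comparison was made. Monocyte replicate 2 differed from the other monocyte libraries with a chi-square per degree of freedom of 133 and 136, against 34.0 between replicates 1 and 3. Short genes were higher and long genes lower in it: its median log2 difference from the other monocyte libraries was 0.56 in the bin of the shortest gene models, of 5 bins, and -0.49 in the bin of the longest. The share of counts from the mitochondrial genome was 0.471%, 2.66% and 1.86% in the monocytes and 2.79% to 3.41% in CAWS R3, and mitochondrial genes are not described further. Each list's count was run again without monocyte replicate 2, and the value is given where it moved by more than 1.5-fold.

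**Figure D1:**
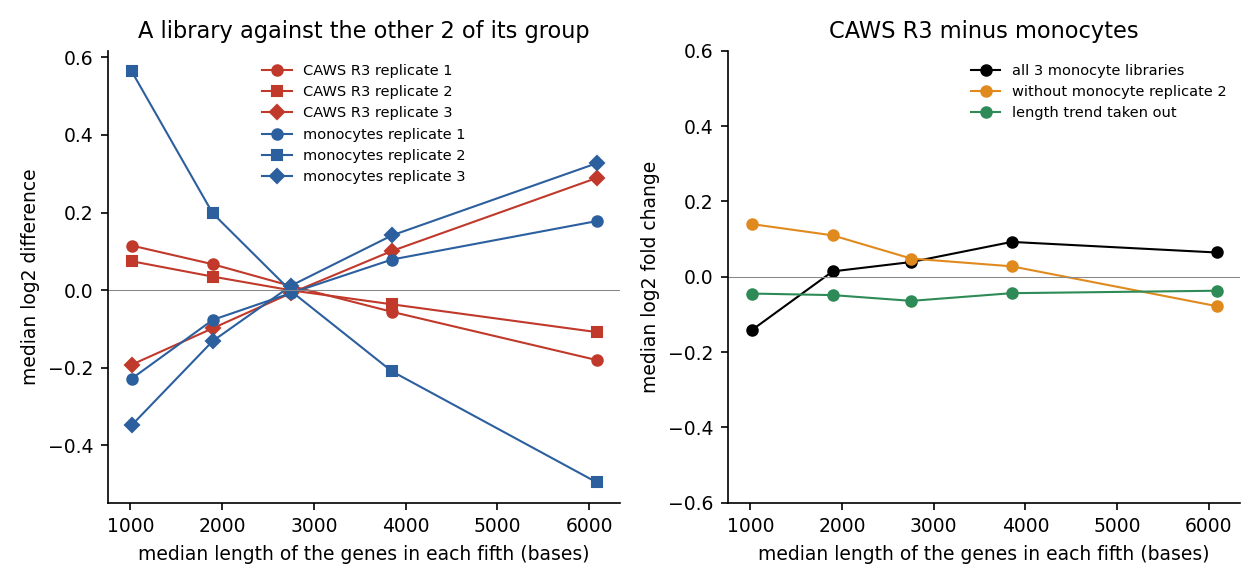
Gene length in the 6 libraries compared. The left panel plots, for each library, the median log2 difference from the other 2 libraries of its group over bins of gene length (x axis, median length in bases); monocyte replicate 2 ran from 0.56 to -0.49. The right panel plots the median log2 fold change of CAWS R3 against monocytes in the same bins, which stayed between -0.14 and 0.14 with all libraries, without monocyte replicate 2 and with the length trend taken out.

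Of 13275 genes tested, 6492 passed edgeR's quasi-likelihood test at a Benjamini-Hochberg adjusted p under 0.05, which is 48.9% of them. Of these, 3500 genes (26.4% of those tested) were higher in CAWS R3 and 2992 (22.5%) were lower. Changes of at least 2-fold were more often upward, with 2309 genes higher and 932 lower by that size. The median log2 fold change over all genes was 0.01. With upper-quartile scaling, which moved that median by 0.133, the split was 4097 higher and 2206 lower. The libraries of the groups did not overlap for 6924 genes (52.2%). These shares are the background for each list below: a list with near 26.4% of its genes higher and 22.5% lower did as all genes did. All adjusted p-values in the text come from this test over all genes, and all log2 fold changes are CAWS R3 minus monocytes with their standard errors (SE) unless another comparison is named.

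**Figure D2:**
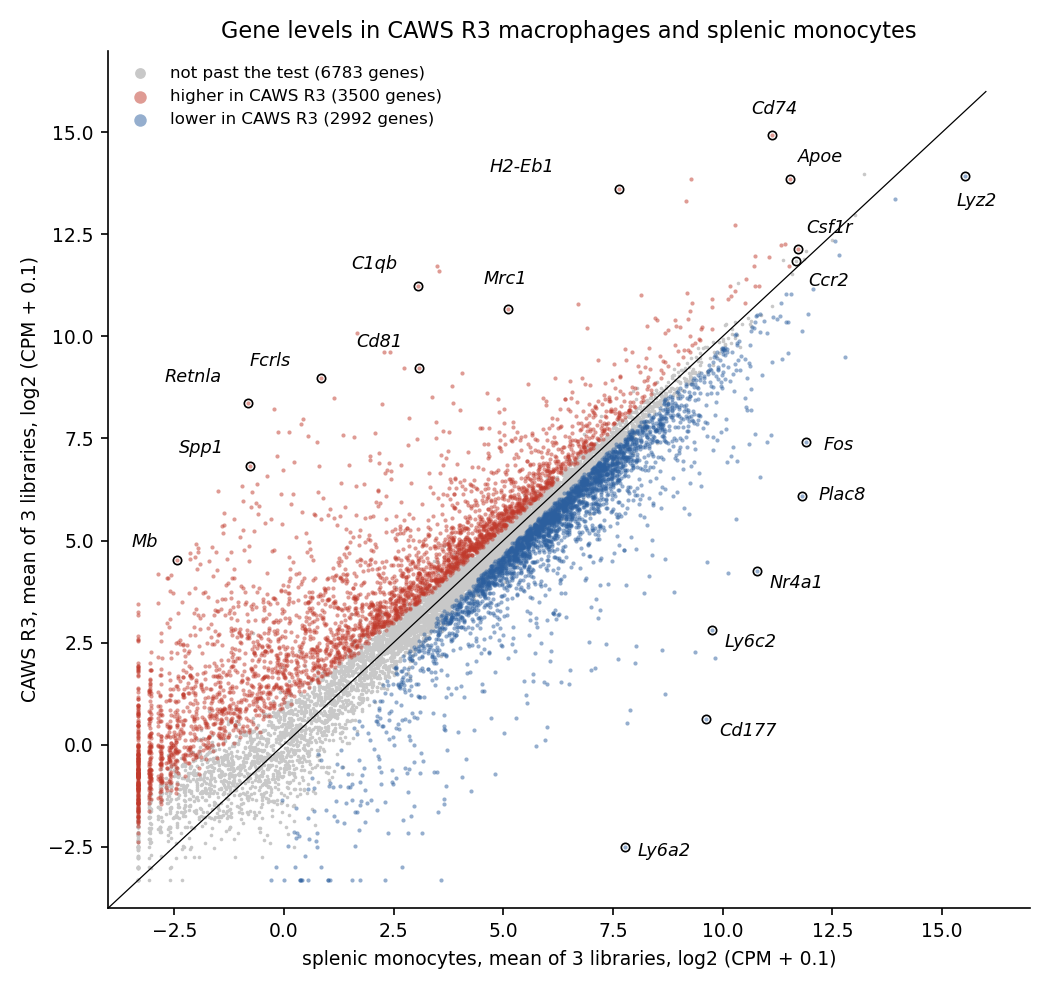
Mean level of each tested gene in the monocytes (x axis) and in CAWS R3 (y axis), as log2 of CPM plus 0.1, over 3 libraries each. Red points are the 3500 genes higher in CAWS R3, blue points the 2992 lower and grey points those not past the test; named genes are circled, and Ccr2 lies on the line of equal levels.

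By length-adjusted level, in TPM, which also divides by gene length, the most abundant RNA of CAWS R3 was Cd74, the MHC class II invariant chain, at 43710 ± 6109 TPM. It was followed by the lysozyme gene Lyz2 at 28800 ± 2275, H2-Aa at 27230 ± 2708 and the lipid carrier Apoe at 23350 ± 632 TPM. In the monocytes Lyz2 came first, at 80630 ± 13290 TPM, and Cd74 stood at 2866 ± 464 TPM. Psap, a precursor of lysosomal lipid-binding proteins, was at 7599 ± 267 TPM in CAWS R3 and 10790 ± 2464 in the monocytes. The groups therefore shared abundant myeloid RNAs and differed in which of them led.

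**Figure D3:**
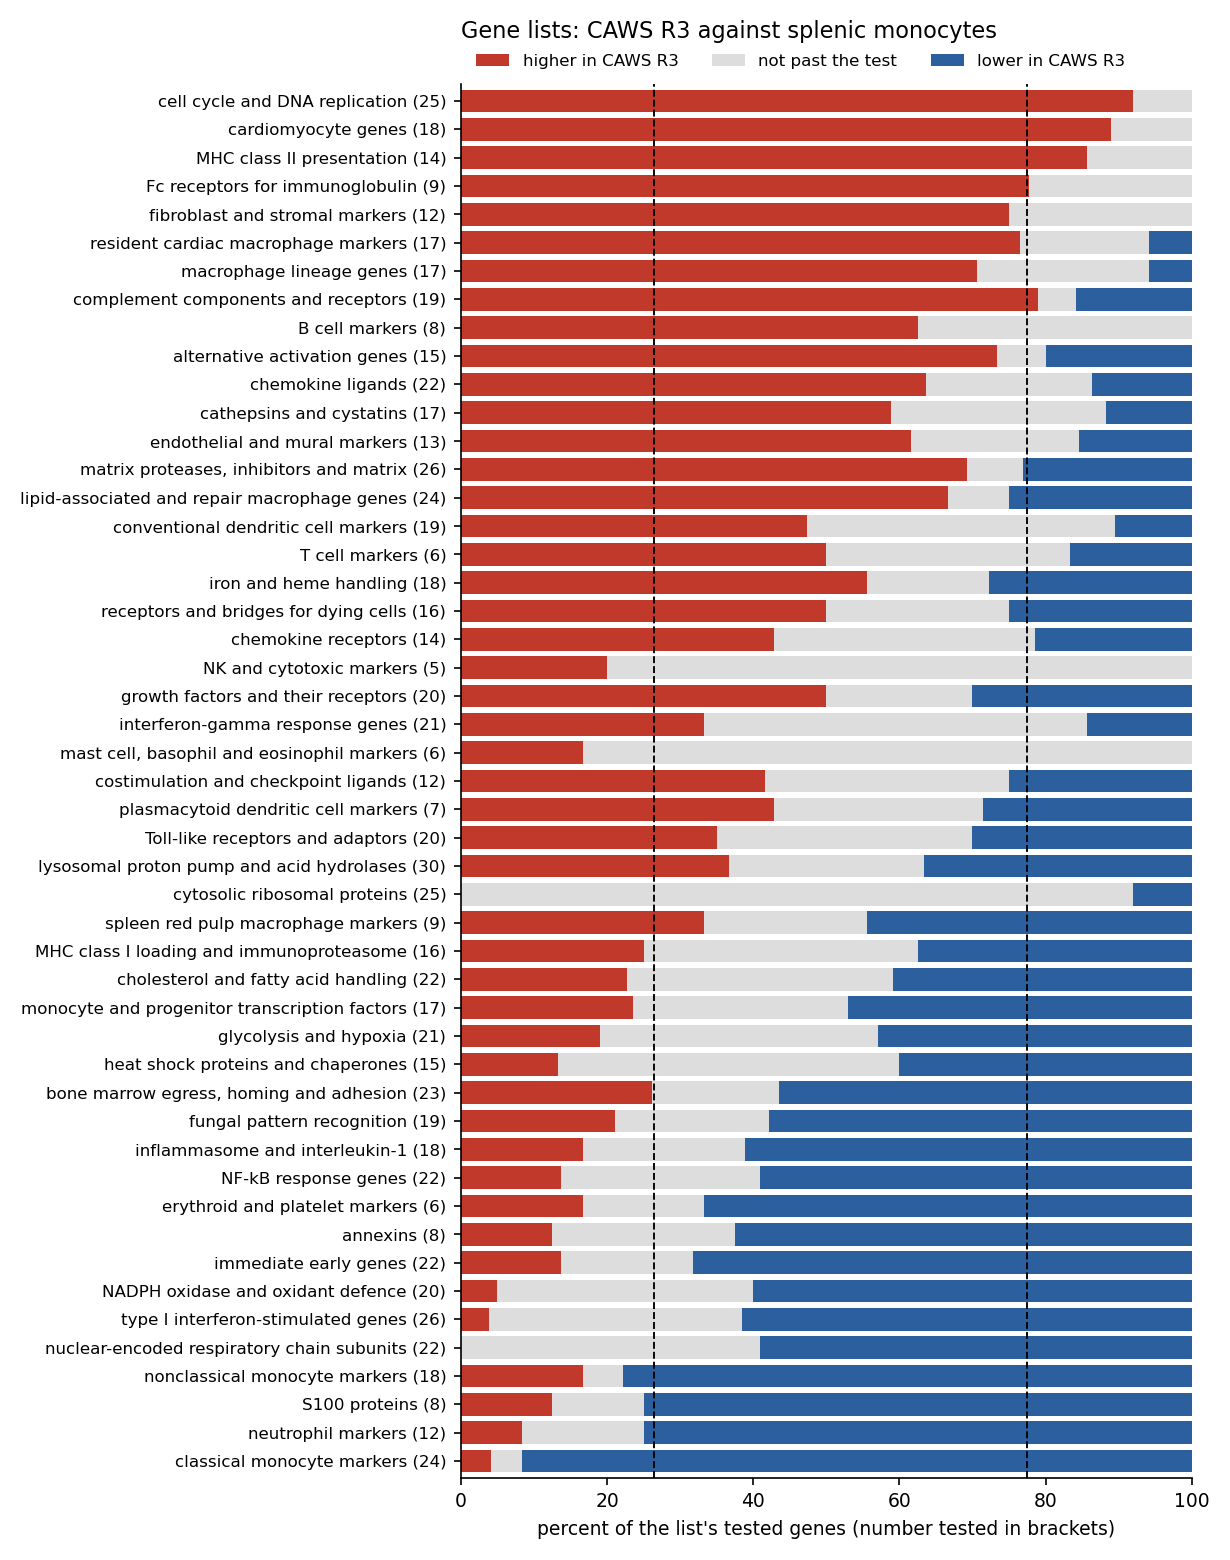
Share of each list's tested genes (x axis, percent) that were higher in CAWS R3 (red), lower (blue) or not past the test (grey), with the number tested in brackets; MHC class II was part of the cardiac sort and its bar only describes the gate. Dashed lines mark the shares over all genes, 26.4% higher and 22.5% lower; cell cycle genes stand at the top and classical monocyte markers at the bottom.

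The sort markers were looked at first, since they check the labels. Ccr2, the chemokine receptor used in both sorts (gene ID 12772, chromosome 9, 124101918 to 124109140 of GRCm38.p6), measured 3466, 4063 and 3471 CPM in CAWS R3 and 2997, 3607 and 3183 CPM in the monocytes. The libraries overlapped, and the difference did not pass the test (log2 fold change 0.17 ± 0.28, adjusted p = 0.653), with a 95% interval from -0.44 to 0.78. Naive R3 held 2599, 2530 and 2041 CPM. All 9 libraries thus held the RNA of the receptor they were sorted on at no less than 2041 CPM. Bulk RNA does not separate fewer cells of a type from less RNA per cell, and these cannot be told apart for any gene below.

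MHC class II molecules, which show peptides to helper T cells, were also part of the cardiac sort, so their RNA describes the gate and is given as levels, with no test. The beta chain gene H2-Eb1 (gene ID 14969, chromosome 17, 34305867 to 34316674) measured 14750, 12010 and 10760 CPM in CAWS R3 and 121, 372 and 101 CPM in the monocytes, a fold of 63.2 (a fitted log2 fold change of 5.98 ± 0.46, and 6.82 without monocyte replicate 2). Every CAWS R3 library was far above every monocyte library, and monocyte replicate 2 held about 3 times the level of the others. H2-Ab1 was 18-fold and Cd74 14.2-fold higher in CAWS R3. Ciita, the master regulator of the class II genes (gene ID 12265, chromosome 16, 10480014 to 10531064), measured 331, 309 and 439 CPM against 50.4, 52.9 and 77.4 CPM, 5.97-fold higher. In 12 of 14 class II genes every CAWS R3 library lay above every monocyte library. The others were Rfxank and Rfxap, subunits of the RFX factor that binds class II promoters, with means of 15.9 ± 2.35 and 26 ± 1.38 CPM in CAWS R3 and 15.9 ± 1.59 and 26.2 ± 3.5 in the monocytes. The remaining RFX subunit, Rfx5, was 1.69-fold higher. The list's median log2 fold change was 2.56, against 0.01 over all genes. Between CAWS R3 and naive R3, which passed the same gate, the list's median log2 difference was -0.13.

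The Y box, the letters CTGATTGG, is a part of class II promoters that the factor NF-Y binds. It is shown because H2-Eb1 and H2-Aa, the class II genes with the widest gap between the groups, both hold it. Promoters (250 bases before to 50 after the start) were taken from RefSeq for GRCm38.p6, where 10 of the 14 listed genes had an entry, with 11 promoters. On either strand, 4 of these 11 held the Y box, against 4.1% of all 32851 promoters in the table. The windows below are read 5′ to 3′ on the gene's strand, with the Y box in capitals:
H2-Aa, chr17:34287847-34287894, minus strand: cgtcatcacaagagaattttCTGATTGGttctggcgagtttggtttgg
H2-Eb1, chr17:34305785-34305832, plus strand: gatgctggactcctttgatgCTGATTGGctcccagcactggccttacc
H2-Oa, chr17:34092313-34092360, plus strand: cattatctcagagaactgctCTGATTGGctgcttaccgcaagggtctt
H2-Eb2, chr17:34325552-34325599, plus strand: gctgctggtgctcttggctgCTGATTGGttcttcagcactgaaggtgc
The Y box began 51 bases before the start in H2-Aa, 62 in H2-Eb1, 46 in H2-Oa and 103 in H2-Eb2. H2-Aa, an alpha chain, measured 17020, 14920 and 12600 CPM in CAWS R3 and 370.2, 1177 and 309 in the monocytes. H2-Oa, a chain of the peptide-exchange regulator H2-O, measured 15.3 ± 5.96 against 1.21 ± 0.755 CPM, and the less used beta chain H2-Eb2 7.11 ± 1.12 against 1.22 ± 0.246 CPM. All 4 were higher in each CAWS R3 library than in any monocyte library, over a wide range of levels. This held for 12 of the 14 class II genes, with the Y box or without it. A match describes the letters only.

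MHC class I genes moved in both directions: of 16, 4 were higher in CAWS R3 and 6 were lower, where all genes gave 26.4% and 22.5%. Their median was -0.15, with 0.01 over all genes. H2-K1, a classical class I heavy chain, measured 2565, 2850 and 2672 CPM against 1527, 1454 and 1465 CPM in the monocytes (0.86 ± 0.11, adjusted p = 1.29e-06). The immunoproteasome subunit Psmb10 was lower (-0.83 ± 0.14, adjusted p = 3.12e-05), as was Tapbp, which loads peptides onto class I (-0.48 ± 0.09, adjusted p = 0.000196). H2-K1 was also higher in CAWS R3 than in naive R3, where it measured 1852, 1889 and 1478 CPM (0.63 ± 0.11, adjusted p = 0.000531). Class I genes share reads with near-identical copies, so their counts are uncertain. Among the costimulatory ligands, Cd86 was higher (1.55 ± 0.12, adjusted p = 3.09e-10) and stood lower in CAWS R3 than in naive R3 (-0.68 ± 0.11, adjusted p = 0.000276), and the ligand Icosl was higher than in the monocytes (1.31 ± 0.15, adjusted p = 1.62e-07).

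The genes that define classical monocytes were far lower in CAWS R3. Of 24 such markers, 22 were lower, 1 was higher and Ccr2 did not pass the test, and the list's median log2 fold change was -4.11. Ly6c2, which encodes the Ly6C surface protein (gene ID 100041546, chromosome 15, 75108161 to 75112066), measured 6.72, 6.74 and 7.28 CPM in CAWS R3 and 821, 1027 and 741 CPM in the monocytes (-6.96 ± 0.32, adjusted p = 1.56e-12). No CAWS R3 library came near the lowest monocyte level of Ly6c2.

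Several of the largest falls over all genes were in this list. Cd177, a neutrophil and monocyte surface glycoprotein (gene ID 68891, chromosome 7, 24743983 to 24760334), measured 2.66, 1.05 and 0.601 CPM against 913, 799 and 663 (-9.14 ± 0.47, adjusted p = 2.3e-11, and -9.91 without CAWS R3 replicate 1). Hp, which binds free haemoglobin, measured 4.38, 4.42 and 4.07 CPM against 805, 1012 and 903 (-7.72 ± 0.59, adjusted p = 1.39e-08). Plac8, an abundant monocyte RNA of little known function, and Vcan, a large matrix proteoglycan, were lower by the test as well (Plac8 -5.71 ± 0.81, adjusted p = 2.49e-05; Vcan -6.03 ± 0.55, adjusted p = 8.3e-08). In each of these genes the highest CAWS R3 library was well below the lowest monocyte library. Lyz2 fell less, from 41800, 64010 and 34520 CPM in the monocytes to 16700, 16710 and 13160 in CAWS R3 (-1.59 ± 0.17, adjusted p = 6.61e-08), and stayed the second RNA of CAWS R3 by TPM. Fn1, the matrix protein fibronectin, was at 767, 582 and 834 CPM against 9432, 4133 and 7582 (-3.28 ± 0.40, adjusted p = 3.71e-06). The marker that moved the other way was Ly6a, the stem cell antigen Sca-1, at 29.7, 77 and 75 CPM in CAWS R3 against 3.21, 6.21 and 3.98 (3.77 ± 0.76, adjusted p = 0.000639). Genes of the Ly6 family are alike in sequence and may share reads. This holds for Ly6a2 too, with 3 counts over the CAWS R3 libraries, 2 of them in replicate 1, and 181, 232 and 239 CPM in the monocytes, a ratio of 2991 with an exact 95% counting interval from 1023 to 14510.

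Markers of the nonclassical, patrolling monocyte were lower as well, in 14 of 18 genes, with 3 higher and a list median of -1.84. Nr4a1, the nuclear receptor that this subset needs (gene ID 15370, chromosome 15, 101253902 to 101274795), measured 27.7, 11.5 and 17.8 CPM in CAWS R3 and 2825, 892 and 1584 CPM in the monocytes (-6.54 ± 0.64, adjusted p = 3.49e-07). Nr4a1 is also an immediate early gene, and its monocyte replicates spread over more than 3-fold. Ace, the angiotensin-converting enzyme, measured 17.2, 19.8 and 17.9 CPM against 1052, 662 and 1606 (-5.92 ± 0.68, adjusted p = 2.45e-06). Itgal, a chain of the integrin LFA-1, was lower (-3.59 ± 0.38, adjusted p = 4.67e-07), and so was Itga4, of the integrin VLA-4 (-2.02 ± 0.23, adjusted p = 4.49e-07). The 3 higher members were the fatty acid transporter Cd36 (2.69 ± 0.13, adjusted p = 2.71e-13), the lipid carrier Fabp4 (1.95 ± 0.32, adjusted p = 3.58e-05) and the integrin Itgax (3.29 ± 0.27, adjusted p = 7.64e-09), all of which macrophages also make. No CAWS R3 library reached the monocyte levels of Nr4a1 or Ace.

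Transcription factors of monocytes and their progenitors were lower in 8 of 17 and higher in 4, or higher in 2 without CAWS R3 replicate 3 or with only the compared groups. Klf2, a factor that keeps myeloid cells quiescent, measured 144, 114 and 106 CPM against 1161, 898 and 1246 CPM (-3.18 ± 0.17, adjusted p = 6.77e-13). It was lower in CAWS R3 than in naive R3 as well, which held 303, 320.2 and 286 CPM (-1.32 ± 0.15, adjusted p = 5.46e-06). Klf4 and Cebpb, which drive monocyte formation, were lower (Klf4 -2.51 ± 0.25, adjusted p = 7.61e-08; Cebpb -3.37 ± 0.30, adjusted p = 3.51e-08, and -2.76 without monocyte replicate 1). Irf8, a factor of monocyte and dendritic cell progenitors, was lower by a smaller step (-0.65 ± 0.13, adjusted p = 0.000221). Bach2, a repressor best known from lymphocytes, was higher (2.52 ± 0.21, adjusted p = 1.82e-09) and Cebpa was slightly so (0.38 ± 0.10, adjusted p = 0.00219). Spi1, the PU.1 factor of all myeloid cells, was lower by a small step, at 518 ± 47.9 CPM against 715 ± 11.9 (-0.46 ± 0.08, adjusted p = 7.13e-05).

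Macrophage lineage genes went the other way: 12 of 17 were higher in CAWS R3, Spi1 was lower and the list median was 1.39. Adgre1, the F4/80 antigen (gene ID 13733, chromosome 17, 57358581 to 57483529), measured 1901, 2385 and 2145 CPM in CAWS R3 and 557, 641 and 538 CPM in the monocytes (1.89 ± 0.10, adjusted p = 6.23e-13). Mertk, the receptor kinase by which macrophages engulf dying cells (gene ID 17289, chromosome 2, 128698915 to 128803162), measured 54.5, 70.3 and 85 CPM against 1.16, 0.682 and 0.729 (6.34 ± 0.20, adjusted p = 1.13e-16). Its relative Axl measured 1084, 1210 and 1249 CPM against 115, 91.4 and 151 (3.31 ± 0.15, adjusted p = 8.69e-14). Mertk was close to absent from the monocytes, while Adgre1 and Axl were present there at a lower level. Maf, a factor of mature macrophages, was at 457 ± 37.8 against 46.8 ± 27 CPM (3.28 ± 0.29, adjusted p = 4.34e-08). Csf1r, the receptor of the growth factor that sustains both cell types, differed little (4505 ± 48.3 against 3378 ± 467 CPM, 0.42 ± 0.09, adjusted p = 0.000887). The fractalkine receptor Cx3cr1 and the endosomal protein Cd68 were at 1235 ± 142 and 579.8 ± 39.6 CPM in CAWS R3 and 1067 ± 142 and 537 ± 37.2 in the monocytes and did not pass the test. The labelled cell types therefore carried the RNA of their defining markers: Adgre1 and Mertk with little Ly6c2 in CAWS R3, and Ly6c2 with little Mertk in the monocytes.

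**Figure D4:**
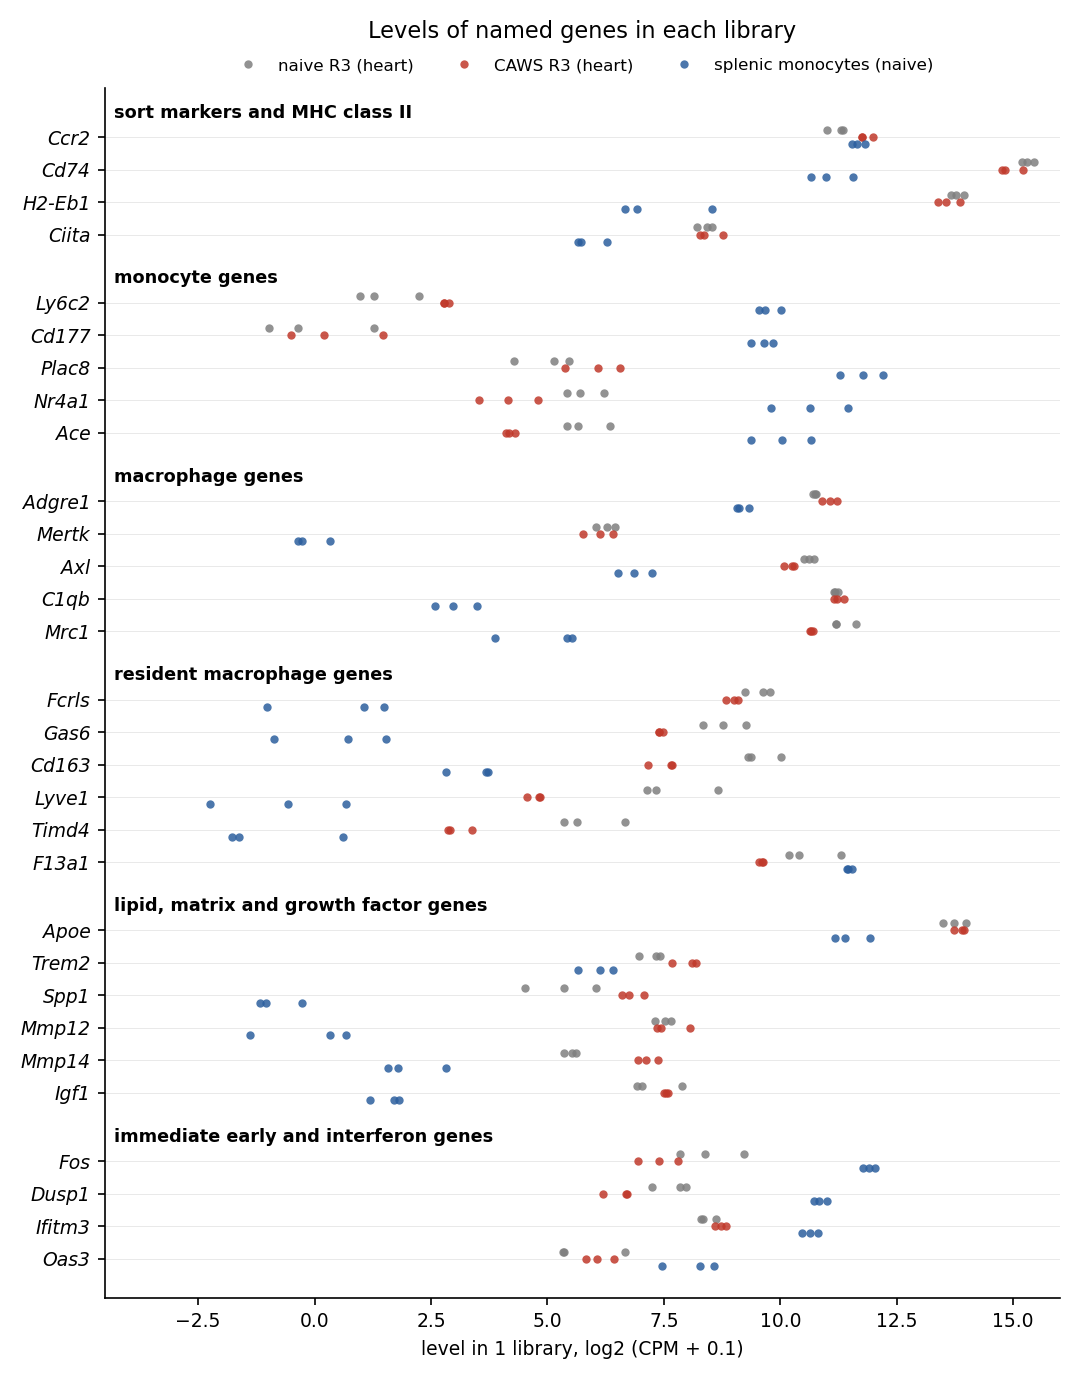
Level of 30 named genes in each library of naive R3 (grey), CAWS R3 (red) and splenic monocytes (blue), as log2 of CPM plus 0.1; each point is 1 library. Ly6c2, Cd177, Plac8, Nr4a1 and Ace stand to the right in the monocytes alone, while Mertk, C1qb, Mrc1, Fcrls and Gas6 stand to the right in both cardiac groups.

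Markers of resident cardiac macrophages were higher in 13 of 17 genes, with a list median of 4.59, although CAWS R3 is the Ccr2-positive sort. Fcrls, an Fc receptor-like protein (gene ID 80891, chromosome 3, 87250736 to 87263765), measured 542, 511 and 457 CPM in CAWS R3 and 2.7, 1.98 and 0.392 CPM in the monocytes (8.25 ± 0.32, adjusted p = 6.32e-14). Gas6, the ligand that bridges dying cells to Mertk and Axl, measured 179, 168 and 169 CPM against 1.54, 2.8 and 0.448 (6.79 ± 0.34, adjusted p = 7.89e-12, and 7.46 without monocyte replicate 2). Cd163, the haemoglobin scavenger receptor, measured 200.4, 142 and 204 CPM against 13.1, 12.7 and 6.95 (4.07 ± 0.23, adjusted p = 2.03e-11). The groups did not overlap for 15 of the 17 genes. Timd4, a receptor for the phosphatidylserine of dying cells, was low in both, at 10.3, 7.18 and 7.41 CPM against 0.193, 1.43 and 0.224 (3.80 ± 0.51, adjusted p = 6.55e-06, and 5.25 without monocyte replicate 2), and naive R3 held 40.9, 49.4 and 102. Lyve1, the hyaluronan receptor, was at 28.7, 23.6 and 28.1 CPM against 0.579, 1.5 and 0.112 (5.25 ± 0.53, adjusted p = 3.2e-07, and 6.31 without monocyte replicate 2), with 139.8, 161 and 406 in naive R3. The folate receptor Folr2 (6.85 ± 0.53, adjusted p = 1.01e-08, and 7.49 without monocyte replicate 2 and 6.26 without monocyte replicate 3) and the scavenger receptor Stab1 (7.39 ± 0.42, adjusted p = 1.53e-10) were higher too. F13a1, the clotting factor subunit, was the member that was lower, joined by 1 more without monocyte replicate 3 (788, 776 and 741 against 2977, 2807 and 2783 CPM, -1.89 ± 0.20, adjusted p = 1.64e-07).

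Complement genes were among the most changed. Of 19, 15 were higher in CAWS R3 and 3 were lower, and the list median was 3.21. With only the compared groups in the fit, 1 was lower. The 3 chains of C1q, which starts the classical pathway and tags dying cells, were all far higher in CAWS R3. C1qb (gene ID 12260, chromosome 4, 136880126 to 136886200) measured 2375, 2626 and 2276 CPM in CAWS R3 and 7.71, 11.1 and 5.94 CPM in the monocytes (8.21 ± 0.17, adjusted p = 4.23e-19). C1qa (8.25 ± 0.30, adjusted p = 4.1e-14) and C1qc (8.09 ± 0.23, adjusted p = 6.05e-17) stood apart by as much. The anaphylatoxin receptor C3ar1 measured 708, 896 and 743 CPM against 5.92, 5.73 and 3.98 (7.24 ± 0.17, adjusted p = 1.73e-18), and C5ar1 was higher too (3.21 ± 0.22, adjusted p = 1.84e-10). C3 itself, the central component, was lower: 149.9, 150.2 and 194 CPM against 1758, 1079 and 1831 (-3.24 ± 0.33, adjusted p = 2.67e-07). The receptors for C3 and C5 fragments were thus high where C3 was low. Among Fc receptors, which bind antibody, 7 of 9 were higher and 1 was lower without monocyte replicate 3. Fcgr4 was at 321, 421 and 318 CPM against 22, 25 and 41.7 (3.58 ± 0.30, adjusted p = 1.99e-08), and Fcgrt, which recycles IgG, at 352 ± 20.4 against 84.8 ± 18 CPM (2.05 ± 0.14, adjusted p = 9.9e-11).

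Chemokine genes were higher in 14 of 22 and lower in 3, with a list median of 3.64. The lower count was 1 without CAWS R3 replicate 3, without monocyte replicate 2 or with upper-quartile scaling, and 5 with limma voom. Cxcl16, a lipid-binding and T cell-drawing chemokine (gene ID 66102, chromosome 11, 70454389 to 70459984), measured 524, 574 and 562 CPM in CAWS R3 and 14.4, 16.2 and 18.8 CPM in the monocytes (5.07 ± 0.12, adjusted p = 1.73e-18). The Ccr2 ligand Ccl12 measured 21.2, 31.1 and 25.6 CPM against 0.257, 0.0683 and 0.0561 (7.62 ± 0.39, adjusted p = 5.57e-13, and 8.59 without monocyte replicate 1). Pf4, a platelet chemokine that macrophages also make, was at 267, 239.8 and 189 CPM against 2.77, 0.614 and 0.224 (7.62 ± 0.42, adjusted p = 4.66e-11, and 9.17 without monocyte replicate 1). Ccl7, another Ccr2 ligand, stood at 8.83, 14.4 and 10.2 CPM in CAWS R3 and at 0.129, 0 and 0.168 CPM in the monocytes. Ccl8 stood at 9.92, 12.2 and 10.6 CPM and had 2 counts over the monocyte libraries. The Ccr2-positive cardiac sort thus also held RNA of the Ccr2 ligands Ccl12 and Ccl7, which the monocytes nearly lacked. The levels of other Ccr2 ligands are not described here. Ccl3, which draws neutrophils and monocytes, was lower (-1.43 ± 0.33, adjusted p = 0.00146, and -0.72 without monocyte replicate 1).

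Of 14 chemokine receptors, 6 were higher and 3 lower (5 lower with limma voom). Ccr1, a receptor for inflammatory chemokines (gene ID 12768, chromosome 9, 123962126 to 123968692), measured 159, 234 and 137 CPM against 21.9, 29.8 and 39.3 (2.54 ± 0.24, adjusted p = 5.08e-08), and Cxcr4, which holds cells in the bone marrow, was lower (-1.56 ± 0.19, adjusted p = 1.11e-06). Fpr1, a receptor for formylated bacterial and mitochondrial peptides, was at 18.3, 27.8 and 23.4 CPM against 2.64, 4.85 and 4.09 (2.58 ± 0.24, adjusted p = 1.17e-08), with 3.36, 3.83 and 5.29 in naive R3. Genes of marrow egress, homing and adhesion were lower in 13 of 23 and higher in 6. S1pr5, a receptor for the lipid S1P that lets monocytes leave the marrow, measured 0.625, 1.35 and 0.667 CPM against 58.8, 31.3 and 69.8 (-5.92 ± 0.73, adjusted p = 3e-06). Its relative S1pr1 went the other way, at 21, 22 and 23 CPM against 0.771, 1.5 and 0.897 (4.39 ± 0.22, adjusted p = 3e-13). Of the 6 that were higher, 3 were tetraspanins, membrane organisers: Cd81 at 618, 628 and 563 CPM against 6.82, 10.8 and 7.34 (6.18 ± 0.15, adjusted p = 3.05e-18), Cd63 (5.87 ± 0.21, adjusted p = 7.71e-16) and Cd9 (4.07 ± 0.14, adjusted p = 4.88e-16).

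Lipid-associated and repair genes, known from foam cells, were higher in 16 of 24 and lower in 6, with a list median of 1.92. Apoe measured 15840, 15270 and 13500 CPM in CAWS R3 and 2666, 3882 and 2301 CPM in the monocytes (2.33 ± 0.18, adjusted p = 1.26e-09). Spp1, the cytokine osteopontin (gene ID 20750, chromosome 5, 104435111 to 104441053), measured 97, 136 and 108 CPM against 0.386, 0.341 and 0.729 (7.81 ± 0.47, adjusted p = 1.08e-10), with 22.9, 41.1 and 66.2 in naive R3. Trem2, a lipid receptor, was at 276, 294 and 204 CPM against 69.8, 85.5 and 50.2 (1.92 ± 0.16, adjusted p = 2.17e-09). Spp1 was near absent from the monocytes, while Trem2 and Apoe were there at lower levels. The 6 lower members were the galectin Lgals3 (-1.24 ± 0.14, adjusted p = 2.61e-07), the lipoprotein Apoc2 (-2.27 ± 0.47, adjusted p = 0.000626), the annexins Anxa1 and Anxa2, the growth factor Vegfa (-4.96 ± 1.30, adjusted p = 0.00428, and -5.77 without CAWS R3 replicate 3 and -3.59 without monocyte replicate 1) and the heme oxygenase Hmox1. Cholesterol and fatty acid genes were mixed, with 5 of 22 higher and 9 lower. Abca1, which exports cholesterol, was at 242, 346 and 400.1 CPM against 20.1, 9.35 and 14 (4.51 ± 0.27, adjusted p = 6.87e-11) and Pltp, a phospholipid carrier, at 1984, 1783 and 1608 against 108, 104 and 102 (4.10 ± 0.12, adjusted p = 3.51e-17). Ch25h, which makes 25-hydroxycholesterol, was higher (7.41 ± 0.55, adjusted p = 1.35e-09, and 9.45 without monocyte replicate 2 and 6.77 without monocyte replicate 3), while Soat1, which stores cholesterol as ester, was lower (-1.53 ± 0.11, adjusted p = 2.67e-10).

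Receptors and bridges for dying cells were higher in 8 of 16 and lower in 4, among them Mertk, Axl, Gas6 and Cd36 on the higher side and Cd300a, a receptor for phosphatidylserine, on the lower (-1.77 ± 0.15, adjusted p = 2.1e-09). Lysosomal pump and hydrolase genes split evenly, with 11 of 30 higher and 11 lower. The lower count was 7 with upper-quartile scaling and 6 with only the compared groups in the fit. Atp6v1b2, a subunit of the acid pump, was lower (-1.20 ± 0.08, adjusted p = 7.56e-11), with no overlap. Cathepsins and their inhibitors were higher in 10 of 17 and lower in 2 (1 lower with DESeq2 or the stricter filter). The legumain gene Lgmn, which processes cathepsins, measured 2121, 2223 and 1860 CPM against 239.9, 334 and 273 (2.87 ± 0.11, adjusted p = 5.86e-15) and the aspartic protease Ctsd 1199, 1394 and 1087 against 307, 278 and 344 (1.99 ± 0.14, adjusted p = 1.55e-10). Iron genes were higher in 10 of 18 and lower in 5. The ferritin heavy chain Fth1 was at 4244, 4152 and 3717 CPM against 1638, 2006 and 1482 (1.24 ± 0.11, adjusted p = 3.16e-09), and the heme exporter Flvcr1 was lower (-1.85 ± 0.12, adjusted p = 5.98e-11).

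Matrix proteases, their inhibitors and matrix genes were higher in 18 of 26 and lower in 6, with a list median of 1.78. Mmp13, a collagenase (gene ID 17386, chromosome 9, 7272514 to 7283333), measured 84.2, 76 and 81.3 CPM in CAWS R3 and 0.514, 0.614 and 0.112 CPM in the monocytes (7.64 ± 0.22, adjusted p = 3.88e-17). Mmp12, the macrophage elastase, was at 268, 164 and 174 CPM against 1.16, 1.5 and 0.28 (7.73 ± 0.42, adjusted p = 3.46e-11). Mmp14, a membrane-bound protease that cuts collagen, was at 138, 123 and 165 CPM against 3.34, 2.87 and 6.95 (4.99 ± 0.24, adjusted p = 2.33e-13), with 48.6, 46.3 and 40.9 in naive R3. No monocyte library held as much as 7 CPM of any of these 3 proteases. The collagenase of granulocytes, Mmp8, was lower: 1.25, 1.95 and 1.87 CPM against 230.2, 255 and 228 (-7.12 ± 0.48, adjusted p = 8.16e-10). Timp2, an inhibitor of such proteases, was higher (2.18 ± 0.11, adjusted p = 6.44e-13), and Plaur, the receptor that focuses plasmin on the cell surface, was lower (-3.0 ± 0.25, adjusted p = 4.12e-09).

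Growth factors and their receptors were higher in 10 of 20 and lower in 6. Igf1, the insulin-like growth factor (gene ID 16000, chromosome 10, 87858265 to 87937047), measured 186, 180.3 and 192 CPM against 3.15, 3.41 and 2.19 (6.00 ± 0.26, adjusted p = 1.92e-13). Pdgfb, which acts on mural cells and fibroblasts, was at 198, 150.1 and 185 CPM against 40.8, 30.9 and 36 (2.30 ± 0.14, adjusted p = 9.31e-12). Tgfb1 was lower, at 466, 391 and 432 CPM against 1185, 828 and 1007 (-1.23 ± 0.11, adjusted p = 8.5e-09), and so was the cytokine Osm (-4.88 ± 0.38, adjusted p = 4.24e-09, and -4.21 without monocyte replicate 1). Alternative activation genes, which interleukin-4 induces, were higher in 11 of 15, with 3 lower and a median of 3.45. Retnla, a secreted resistin-like protein (gene ID 57262, chromosome 16, 48842609 to 48844461), measured 472, 314 and 212 CPM against 0.579, 0.546 and 0.28 (9.48 ± 0.56, adjusted p = 2.9e-10). The mannose receptor Mrc1 was at 1591, 1605 and 1663 CPM against 46.3, 42.6 and 14.5 (5.56 ± 0.30, adjusted p = 3.02e-11) and the lectin Mgl2 at 504, 312 and 264 against 2.57, 3.28 and 0.448 (7.46 ± 0.40, adjusted p = 3.27e-11). Chil3, counted in this list and among the monocyte markers, was lower (31.6, 67.8 and 39.6 against 849, 1638 and 1315 CPM, -4.77 ± 0.42, adjusted p = 5.71e-08).

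Of 19 fungal recognition genes, 11 were lower in CAWS R3 than in the monocytes and 4 were higher. Clec4e, the receptor Mincle, measured 13.1, 11.6 and 14.6 CPM in CAWS R3 and 76.5, 92.5 and 84.1 CPM in the monocytes (-2.69 ± 0.24, adjusted p = 4.69e-09), while Clec4n, the receptor Dectin-2, was at 141, 157 and 134 against 15.8, 25.1 and 13.7 (2.99 ± 0.17, adjusted p = 3.37e-12). These receptors, both known to bind fungal ligands, thus differed in opposite directions. Against naive R3, 5 of the 19 genes were higher in CAWS R3 and 1 lower, with 6.46% and 8.29% over all genes. The list median was -0.54 for CAWS R3 minus monocytes and -0.73 for naive R3 minus monocytes. Of 20 Toll-like receptors and adaptors, 7 were higher than in the monocytes and 6 lower, where all genes gave 26.4% and 22.5%. Their median was 0.05, with 0.01 over all genes. Tlr4, the endotoxin receptor, was higher (1.64 ± 0.14, adjusted p = 4.95e-09), as was its partner Cd14 (1.63 ± 0.29, adjusted p = 0.000164, and 2.39 without monocyte replicate 1), while Tlr7 (-0.95 ± 0.10, adjusted p = 3.95e-08) and the adaptor Myd88 (-1.06 ± 0.11, adjusted p = 7.6e-08) were lower.

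NF-kB response genes were lower in 13 of 22 and higher in 3, with a median of -0.86. Tnfaip2 was at 56.7, 49.4 and 60.4 CPM against 623, 442 and 597 (-3.32 ± 0.16, adjusted p = 2.84e-13), and Nfkbia, the inhibitor that NF-kB itself induces, at 77.3, 78.7 and 70.9 against 297, 202 and 178 (-1.58 ± 0.15, adjusted p = 1.71e-08). The 3 higher members were the cytokine Tnf at low level (0.98 ± 0.29, adjusted p = 0.00794), the signal adaptor Traf1 (1.21 ± 0.18, adjusted p = 9.35e-06) and the survival gene Bcl2a1b (2.94 ± 0.22, adjusted p = 3.48e-10). Inflammasome and interleukin-1 genes were lower in 11 of 18 and higher in 3. Il1b, the cytokine interleukin-1 beta, measured 65.2, 56.9 and 68 CPM against 466, 139.9 and 144 (-1.98 ± 0.44, adjusted p = 0.00127, and -1.15 without monocyte replicate 1), and monocyte replicate 1 was about 3 times the other monocyte libraries. Casp4, the sensor of cytosolic endotoxin, was lower (-1.56 ± 0.20, adjusted p = 8.57e-07), and Il18bp, which neutralises interleukin-18, was higher (2.87 ± 0.30, adjusted p = 6.32e-08). Genes of the NADPH oxidase and oxidant defence were lower in 12 of 20 and higher in 1, the proton channel Hvcn1 (1.37 ± 0.13, adjusted p = 2.26e-08). The lower count was 7 with only the compared groups, and 3 were higher with upper-quartile scaling. Cybb, the oxidase core, was at 2061, 2269 and 2528 CPM against 4889, 3465 and 4461 (-0.90 ± 0.11, adjusted p = 6.04e-07) and the peroxidase Prdx5 at 182, 208 and 167 against 772, 1132 and 754 (-2.25 ± 0.15, adjusted p = 4.56e-11). Against naive R3, 5 of 22 NF-kB, 6 of 18 inflammasome and 6 of 20 oxidase-list genes were higher in CAWS R3, and 0 lower. Over all genes, 6.46% were higher and 8.29% lower in that comparison. For naive R3 minus monocytes the list medians were -0.95, -0.83 and -0.69.

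Of 26 type I interferon-stimulated genes, which antiviral interferons induce, 16 were lower in CAWS R3 and 1 was higher, with a median of -0.89. Ifitm3, a membrane protein that blocks viral entry (gene ID 66141, chromosome 7, 141009590 to 141010744), measured 425, 457 and 386 CPM against 1590, 1792 and 1413 (-1.92 ± 0.15, adjusted p = 9.2e-10). Cmpk2, a mitochondrial nucleotide kinase, was at 25.2, 33.5 and 39.7 CPM against 153, 129 and 139.5 (-2.10 ± 0.25, adjusted p = 9.64e-07). The member that was higher was Ifi44 (1.88 ± 0.66, adjusted p = 0.0236), a call lost without CAWS R3 replicate 2 or 3 or without any 1 of the monocyte libraries (adjusted p = 0.0504 to 0.0833). None of the 26 passed edgeR's test between CAWS R3 and naive R3, 2 did at an unadjusted p under 0.05, 0 did with DESeq2 and 1 with limma voom.

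Promoters of these genes are shown because the interferon-stimulated response element is the site by which type I interferon acts. Its core was searched as GAAANNGAA on both strands, where neighbouring matches may overlap. RefSeq promoters of GRCm38.p6 were found for 21 of the 26 genes, and 12 of their 25 promoters held the core, against 8.56% of all. In the windows below the matches stand in capitals, in the gene's direction, so that TTCNNTTTC is a match on the other strand:
Oas3, chr5:120777706-120777754, minus strand: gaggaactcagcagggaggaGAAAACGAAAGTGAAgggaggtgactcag
Oas1a, chr5:120907517-120907565, minus strand: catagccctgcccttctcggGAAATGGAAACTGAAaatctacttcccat
Rsad2, chr12:26456543-26456591, minus strand: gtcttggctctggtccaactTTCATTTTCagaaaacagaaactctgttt
Oas3 and Oas1a encode sensors of double-stranded RNA, and Rsad2 encodes the antiviral enzyme viperin. Oas3 measured 56.5, 66.8 and 85.7 CPM in CAWS R3 and 309, 175 and 379 CPM in the monocytes (-2.05 ± 0.47, adjusted p = 0.00185). Oas1a and Rsad2 were lower by smaller steps (-0.70 ± 0.21, adjusted p = 0.00776 and -1.04 ± 0.28, adjusted p = 0.00477), and in none of the 3 did the groups overlap. The promoter of Ifi44, the member that was higher, held the core as well.

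Of 21 interferon-gamma response genes, 7 were higher and 3 lower, close to the shares over all genes, with a median of -0.02. With the length trend taken out, 5 were lower. Iigp1, a GTPase that attacks the vacuoles of microbes, measured 19, 32.2 and 28.2 CPM against 1.22, 1.71 and 1.12 (4.30 ± 0.23, adjusted p = 1.69e-12). Cxcl9, a chemokine that draws activated T cells, was at 51.3, 59.9 and 69.8 CPM against 19.4, 25.5 and 24.8 (1.38 ± 0.19, adjusted p = 3.53e-06). The adhesion molecule Icam1 was lower (-0.63 ± 0.10, adjusted p = 3.49e-05).

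Immediate early genes, which cells switch on within minutes of a stimulus or of handling, were lower in 15 of 22 and higher in 3, with a median of -1.82. Fos (gene ID 14281, chromosome 12, 85473890 to 85477274) measured 222, 123 and 168 CPM in CAWS R3 and 4222, 3507 and 3808 CPM in the monocytes (-4.49 ± 0.51, adjusted p = 2.07e-06), and naive R3 held 335, 230 and 596. Dusp1, a phosphatase that ends kinase signalling, was at 105, 73.2 and 102 CPM against 2053, 1681 and 1829 (-4.31 ± 0.27, adjusted p = 9.67e-11), and Zfp36, which destroys cytokine messages, at 234, 158 and 186 against 3165, 1528 and 1907 (-3.52 ± 0.27, adjusted p = 3.6e-09). The list summed to 2190 to 2677 CPM in CAWS R3 and 12470 to 21030 CPM in the monocytes. How the cells were freed from heart and spleen is not stated in the sources used here, and the part of handling in these genes was not tested. Myc, Egr2 and Egr3 were the members that were higher (Myc 3.15 ± 0.31, adjusted p = 5.15e-08; Egr2 3.45 ± 0.28, adjusted p = 1.44e-09; Egr3 3.69 ± 0.55, adjusted p = 9.87e-06). Heat shock genes were lower in 6 of 15 and higher in 2 (4 higher with upper-quartile scaling, 1 with limma voom). The chaperone Dnajb1 was at 38.2, 36.3 and 42.3 CPM in CAWS R3, 62.4, 65.6 and 49.3 in the monocytes (-0.60 ± 0.15, adjusted p = 0.00266) and 84.7, 68.3 and 104 in naive R3.

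S100 genes, which encode small calcium-binding proteins, and annexin genes were mostly lower. Some were counted above: S100a4 among the classical monocyte markers, and Anxa1 and Anxa2 among the lipid-associated genes. Of 8 S100 genes, 6 were lower; S100a4 was at 322, 320.2 and 244 CPM against 1044, 2764 and 1036 (-2.45 ± 0.34, adjusted p = 1.17e-05, and -1.82 without monocyte replicate 2), with monocyte replicate 2 far above the others. Of 8 annexins, 5 were lower; Anxa2 was at 542, 518 and 461 CPM against 1458, 1777 and 1310 (-1.58 ± 0.12, adjusted p = 3.12e-10). The higher member of each was S100a1 (0.41 ± 0.17, adjusted p = 0.0487), a call lost in 9 of 15 alternatives, and Anxa3 (0.82 ± 0.18, adjusted p = 0.000587), joined by 1 more annexin without monocyte replicate 2, with upper-quartile scaling, with the stricter filter or with limma voom.

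Cell cycle genes were the list with the largest share of higher members: 23 of 25, with a median of 2.52. Mcm6, a subunit of the helicase that opens DNA for replication (gene ID 17219, chromosome 1, 128331575 to 128359705), measured 86.9, 84.9 and 87.8 CPM in CAWS R3 and 12.6, 18.3 and 17 CPM in the monocytes (2.44 ± 0.14, adjusted p = 4.72e-12). Tk1, the thymidine kinase of S phase, was at 13.1, 15.3 and 13.1 CPM against 0.643, 0.682 and 1.23 (3.98 ± 0.34, adjusted p = 2.92e-09), and Cdk1, the kinase of mitosis, at 19.5, 13.1 and 17.9 against 0.322, 0.751 and 2.75 (3.67 ± 0.54, adjusted p = 1.77e-05, and 4.97 without monocyte replicate 3). Replication and mitosis genes thus lay higher together, with 24 of 25 free of overlap. Summed, the list gave 778 to 974 CPM in CAWS R3, 190 to 309 in the monocytes and 613 to 959.7 in naive R3. Between CAWS R3 and naive R3 none of the 25 passed edgeR's test, 4 did at an unadjusted p under 0.05, 1 did with DESeq2 and 3 with limma voom.

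Glycolysis and hypoxia genes were lower in 9 of 21 and higher in 4 (2 with only the compared groups), with the pyruvate kinase Pkm at 480.4, 468 and 501 CPM against 1150, 1215 and 1109 (-1.26 ± 0.08, adjusted p = 3.88e-11). Respiratory chain subunits were lower in 13 of 22, but in 4 with only the compared groups, and ribosomal proteins in 2 of 25. Both lists hold short genes. Without monocyte replicate 2, 5 ribosomal proteins were higher and 0 lower by the same test, where 0 were higher before. Without monocyte replicate 3, 10 were lower, without monocyte replicate 1, 4, without CAWS R3 replicate 2, 1, and without CAWS R3 replicate 3, 0. With the length trend taken out, 3 were higher and 7 lower. None was lower with upper-quartile scaling, with no filter or with only the compared groups, and 1 was with the stricter filter. By other tools, limma voom gave 5 higher and 0 lower, and DESeq2 0 higher and 3 lower. Ribosomal proteins summed to 8898 to 11700 CPM in CAWS R3, and to 10440, 20130 and 9147 CPM in the monocytes. Their count and direction thus moved with the libraries and settings used, and none is given for them. Without that library, 9 respiratory subunits were lower.

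Markers of other cell types were measured in the same libraries. Of 18 cardiomyocyte genes, 16 were higher in CAWS R3. However, 8 of the 18 had no count in any monocyte library. Such genes passed the filter through the cardiac libraries alone and could only be called higher, so the count of 16 is partly fixed by the filter. Myl3, a ventricular myosin light chain, measured 8.67, 11.5 and 12.2 CPM in CAWS R3 and 0 in all monocyte libraries. Taking a floor of 3 counts over the monocyte group, it was at least 173-fold higher, and cardiac troponin T, Tnnt2, at least 151-fold. Naive R3 held 15.8, 13 and 18.1 CPM of Myl3. The list summed to 151 to 199 CPM in CAWS R3 and 22.8 to 30.3 CPM in the monocytes, of which the broadly used tropomyosin Tpm1 gave 64.9, 72.1 and 64.7 and 23.5, 29 and 22.1. Fibroblast markers were higher in 9 of 12, with Dcn, the proteoglycan decorin, at 9.3, 14.8 and 14.9 CPM against 0, 0 and 0.224 (7.18 ± 1.31, adjusted p = 0.000255, with all its monocyte counts in replicate 3). Of the 12, 3 had no count in any monocyte library, and the same limit holds for them. The fibroblast list summed to 728 to 791 CPM in CAWS R3 and 341 to 403 CPM in the monocytes, nearly all of it Gsn, which macrophages make as well. Endothelial and mural markers were higher in 8 of 13 (4 with the stricter filter) and lower in 2 (1 with any of the 6 libraries left out), with sums of 45.2 to 78.7 and 35.3 to 41.2 CPM. Of these 13, 1 had no count in any monocyte library. RNA of heart tissue thus stood in the cardiac sort at low levels and moved with the comparison; its part in the other results was not tested.

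Conventional dendritic cell markers were higher in 9 of 19 and lower in 2, or 1 without CAWS R3 replicate 2 or 3 or monocyte replicate 1 or 2. Their sums were 2357 to 2568 CPM in CAWS R3 and 1885 to 1938 CPM in the monocytes, and the list median was 1.27. The members printed next were low in level, and the levels of most others are not given here. Clec9a was at 11.2, 8.53 and 8.41 CPM against 1.74, 2.52 and 1.12 (2.39 ± 0.29, adjusted p = 6.5e-07), Mycl at 19, 18.5 and 16.5 against 1.35, 1.3 and 0.673 (4.03 ± 0.26, adjusted p = 2.06e-11) and the chemokine receptor Ccr7 at 0.234, 0.0748 and 0.0667 CPM in CAWS R3. Neutrophil markers were lower in 9 of 12 (3 with the stricter filter), with 1 higher, and summed to 145 to 172 CPM in CAWS R3 against 622 to 799 in the monocytes. Most of this was Mmp8 and the growth factor receptor Csf3r, which monocytes make as well. Among the 12, 2 had no count in any CAWS R3 library and could only be called lower. S100a9, a protein abundant in neutrophils, was at 1.29, 21.2 and 34.6 CPM in the monocytes. B cell markers were higher in 5 of 8, a count that fell to 2 without CAWS R3 replicate 1 or with only the compared groups, and to 3 with the stricter filter or without monocyte replicate 1 or 3. The stricter filter and the fit of only the compared groups also changed which genes were tested. A lower count there may therefore be a member no longer tested. The most abundant was Ighm, the IgM heavy chain, at 716, 697 and 591 CPM against 418, 511 and 316 (0.69 ± 0.14, adjusted p = 0.000308), with Cd79a at 1.17, 0.449 and 0.734 CPM in CAWS R3. T cell markers were higher in 3 of 6 and lower in 1, a lower count that was 0 without CAWS R3 replicate 1 or 2 or monocyte replicate 2 or 3 and 2 without monocyte replicate 1. They summed to 31.5 to 34.1 CPM in CAWS R3 and 3.15 to 9.01 in the monocytes. Cd28, a costimulatory receptor, was at 8.91, 12.9 and 6.07 CPM against 0.193, 0.0683 and 0 (6.67 ± 0.66, adjusted p = 3.8e-08, and 7.95 without monocyte replicate 1 and 6.05 without monocyte replicate 3), while Cd3e, a defining T cell gene, had no count in CAWS R3. Haemoglobin Hba-a1 was at 2.44, 22.6 and 9.02 CPM in the monocytes and 0.391, 0 and 0.267 in CAWS R3 (-5.65 ± 1.21, adjusted p = 0.000937, and -6.28 without CAWS R3 replicate 1 and -4.67 without monocyte replicate 2). Red pulp macrophage markers of the spleen were lower in 4 of 9 and higher in 3 (5 with limma voom), with Spic, their defining factor, at 11, 19.9 and 14.7 CPM in the monocytes and 5.31, 6.21 and 7.61 in CAWS R3 (-1.25 ± 0.24, adjusted p = 0.000241). The list as a sum went the other way, at 2317 to 2905 CPM in CAWS R3 against 1015 to 1117 in the monocytes. Its median was 0.53, and Adgre1 was among its higher members. Of the remaining lists, NK and cytotoxic markers were higher in 1 of 5 (2 without monocyte replicate 2 or with limma voom), those of mast cells, basophils and eosinophils in 1 of 6 (2 with DESeq2) and plasmacytoid dendritic cell markers in 3 of 7, with 2 of the last lower. Among the 11 listed mast cell, basophil and eosinophil markers, 8 had no count in the monocytes and 7 none in CAWS R3. A tested gene without a count in 1 group could be called in 1 direction only, so that list's counts are partly fixed. Erythroid and platelet markers were lower in 4 of 6 (1 with the stricter filter), while Pf4 was higher, joined by 1 more without monocyte replicate 1. The B cell, plasmacytoid, erythroid, lysosomal and cathepsin lists each held 1 tested gene without a count in 1 group, with the same limit.

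Naive R3 macrophages place these differences beside a cardiac group without CAWS. Naive R3 against monocytes gave 7759 genes past the test (58.4% of those tested), and CAWS R3 against naive R3 gave 1958 (14.7%), of which 858 (6.46%) were higher and 1100 (8.29%) lower. Leaving out 1 library moved the 1958 to 972 (CAWS R3 replicate 2) or 1143 (CAWS R3 replicate 1), and limma voom gave 3309, so the shares of 6.46% and 8.29% are uncertain as a background. The comparisons share libraries, so each one's own counts and levels are given and no overlap between them. C1qb was at 2282, 2403 and 2314 CPM in naive R3 and H2-Eb1 at 13990, 15790 and 12910, so that naive R3 overlapped CAWS R3 in both genes and neither group came near the monocytes. For 13 of the 17 resident markers CAWS R3 was lower than naive R3, and the list's median log2 difference between them was -1.42. Cd163 went from 658, 634 and 1032 CPM in naive R3 to 200.4, 142 and 204 in CAWS R3 (-2.09 ± 0.21, adjusted p = 1.39e-06), and Lyve1 (-3.14 ± 0.38, adjusted p = 2.95e-05, and -2.49 without naive R3 replicate 3) and Timd4 (-2.95 ± 0.34, adjusted p = 1.66e-05) were lower than in naive R3 too. In each of these CAWS R3 lay between naive R3 and the monocytes.

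Other genes stood between the groups in the opposite order. Chil3 was at 2.32, 3.43 and 3.57 CPM in naive R3, 31.6, 67.8 and 39.6 in CAWS R3 and 849, 1638 and 1315 in the monocytes, and the step between the cardiac groups was 3.9 ± 0.45, adjusted p = 2.27e-05. C3 was at 28.2, 41 and 61.6 CPM in naive R3 (1.92 ± 0.32, adjusted p = 0.000612) and Clec4e at 3.3, 4.52 and 2.91 (1.86 ± 0.26, adjusted p = 3.66e-05). Lgals3 was at 288, 333 and 307 CPM in naive R3, 692, 685 and 583 in CAWS R3 and 1428, 1979 and 1234 in the monocytes (1.08 ± 0.14, adjusted p = 2.48e-05). Of the 24 classical monocyte markers, 5 were higher in CAWS R3 than in naive R3 and 19 did not pass that test. Ly6c2 was at 1.85, 4.63 and 2.32 CPM in naive R3, so both cardiac groups were far below the monocytes.

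A further set, Cfb, Mmp14, Gpr162, Fpr1, Trem2 and Cxcl9, was highest in CAWS R3. Cfb, complement factor B of the alternative pathway, was at 89.5, 170.3 and 174 CPM in CAWS R3, 16.2, 13.6 and 19.2 in naive R3 (3.15 ± 0.31, adjusted p = 2.34e-06) and 51.2, 64.4 and 59.7 in the monocytes (1.31 ± 0.29, adjusted p = 0.00107). Every CAWS R3 library was above all 6 others. Mmp14, with its levels given above, was higher than in naive R3 (1.65 ± 0.20, adjusted p = 7.52e-06). Gpr162, an orphan receptor, was at 13.9, 18.2 and 18.8 CPM in CAWS R3, 3.13, 3.26 and 3.44 in naive R3 and 0, 0.0683 and 0.112 in the monocytes (2.37 ± 0.29, adjusted p = 8.49e-06). Fpr1 and Trem2 were also higher in CAWS R3 than in naive R3 (Fpr1 2.48 ± 0.24, adjusted p = 4.81e-07; Trem2 0.76 ± 0.16, adjusted p = 0.00215). Of the 21 interferon-gamma response genes, 9 were higher in CAWS R3 than in naive R3, with a list median difference of 0.55. Cxcl9 was at 8.69, 15.4 and 12.8 CPM in naive R3, below both other groups (2.29 ± 0.20, adjusted p = 1.59e-07 between the cardiac groups). Cxcl10 was at 10.5, 16.6 and 7.74 CPM in naive R3, 39.1, 39 and 38.6 in CAWS R3 and 76.4, 63.1 and 43 in the monocytes (1.74 ± 0.32, adjusted p = 0.00123 between the cardiac groups). Over all genes, the share higher in this comparison was 6.46%. Klf2 and Dusp1 were lowest in CAWS R3, and lower than in naive R3 by the test (Klf2 -1.32 ± 0.15, adjusted p = 5.46e-06; Dusp1 -1.18 ± 0.24, adjusted p = 0.00248). Nes, the filament protein nestin, was at 378, 252 and 283 CPM in naive R3, 65.1, 59.5 and 97.7 in CAWS R3 and 0.322, 0.273 and 0.168 in the monocytes (-2.04 ± 0.20, adjusted p = 1.3e-06).

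**Figure D5:**
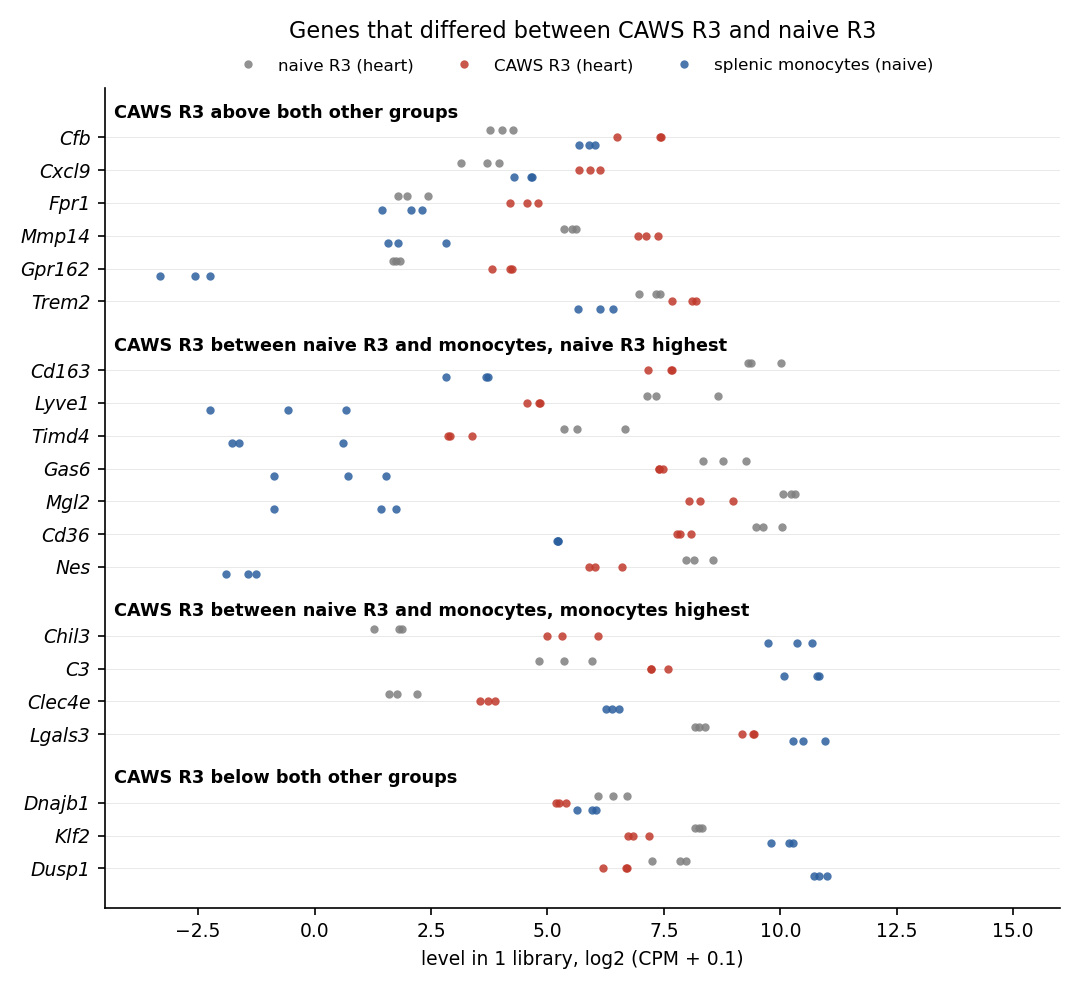
Level of 20 genes that passed the test between CAWS R3 and naive R3, as log2 of CPM plus 0.1 in each library of naive R3 (grey), CAWS R3 (red) and monocytes (blue). The genes are grouped by where CAWS R3 stood: above both, as for Cfb, between them, as for Cd163 and Chil3, or below both, as for Klf2.

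The plot of genes by their CAWS R3 position was put together after the values were seen. So were the mentions of Lyve1, Folr2, Stab1, Mmp12, Rfx5, H2-Oa, H2-Eb2, Maf, Trem2, Itga4, Itgal, Oas3, Oas1a, Rsad2, Cfb, Il1b, Cdk1, Cd14, Tpm1, Cybb, Ccl7, Ccl8, Tnnt2, Cx3cr1, Cd68, Rfxank, Rfxap, Ccr7, S100a9, Cd79a, Cd3e and Cxcl10, which the rule for named genes does not give.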

How the data were processed

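RNA of freshly sorted cells was extracted with the RNeasy Plus Mini kit and made into TruSeq RNA libraries, per the labels' protocols. The authors deposited whole-number counts per gene made with featureCounts on mm10, per the submitters' processing notes; the sources used here do not name the aligner, the annotation release or the strand setting, so reads of overlapping and antisense genes cannot be told apart. Symbols and coordinates were matched by gene ID to RefSeq for GRCm38.p6 (25275 of 27179 IDs), and TPM was computed from the deposited gene lengths.

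The 21 libraries were fitted together with edgeR 4.0.16 in R 4.3.3 (TMM, 7 group means, 14 residual degrees of freedom, robust quasi-likelihood test) after a filter at a minimum count of 10, which left 13275 genes; p-values were adjusted over all of them. Each edgeR SE was worked back from the test, as the absolute log2 fold change divided by the square root of its F value, and is approximate. The interval for Ccr2 used this SE with 14 degrees of freedom. The fit was tested on simulated data. Alternatives were DESeq2 1.42.0, limma voom 3.58.1, other scalings (upper quartile, relative log expression), no filter or a stricter one (minimum count 50), only the compared groups, a replicate block, each library left out and, added after seeing the data, offsets that take out the length trend. The stricter filter left 11194 genes, so a list's count under it may fall because members were no longer tested.

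The comparison and the 49 gene lists were chosen with earlier results of these data known. Among 765 different genes listed, 96 stood in more than 1 list, so counts of lists that share members are not separate results. The rule for named genes took the sort and lineage markers, the 15 largest changes in fold and in TPM in each direction, at most 4 genes of each list by smallest p, and members that moved against their list; not every gene it gives is described. Counts give the depth behind each value, and intervals on counts cover counting error only. Some genes that the rule gives are not reported here.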

Additional observations from a re-analysis of the deposited data

Results flagged for a closer look

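Of all genes tested, 19 had CAWS R3 and naive R3 on opposite sides of the monocytes with all 3 comparisons past edgeR's test, and CAWS R3 was the higher in 15 of them. The comparisons share libraries, so the difference between the cardiac groups was taken as its own contrast. That contrast was also 1 of the 3 used to pick the 19 genes. Its adjusted p-values below are therefore under 0.05 by selection and are no separate check. The listed or named genes among the 19 were Cfb, Cxcl9 and Dnajb1. Cfb, complement factor B, was 1.31 above the monocytes in CAWS R3 and -1.84 from them in naive R3, a log2 difference of 3.15 ± 0.31 (SE, n = 3 libraries each, edgeR adjusted p = 2.34e-06). Cxcl9, the T cell-drawing chemokine, stood at 1.38 and -0.92, a difference of 2.29 ± 0.20 (edgeR adjusted p = 1.59e-07). The chaperone Dnajb1 stood at -0.60 and 0.54, a difference of -1.14 ± 0.15 (edgeR adjusted p = 3.03e-05).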

How the results depend on the processing

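The count between CAWS R3 and monocytes, 6492, ran from 4592 with only the compared groups to 7338 with limma voom, and from 5741 to 6516 with 1 library left out. The count between CAWS R3 and naive R3, 1958, was 3309 with limma voom and ran from 972, without CAWS R3 replicate 2, to 1945 with 1 library left out; without CAWS R3 replicate 1 it was 1143. All 307 genes with a printed or rule-given test against the monocytes kept their direction under 15 alternatives, and 268 of them kept their call. The 31 given a test against naive R3 kept both. Upper-quartile scaling gave 65.0% of calls higher, against 53.9% with TMM, and 46.3% were higher with the length trend taken out. With the replicate number as a block, 6638 genes passed. The numbers were not taken to pair the libraries: same-numbered libraries of CAWS R3 and monocytes had deviations that correlated at -0.04, 0.20 and 0.34. With that block, 5 of 25 ribosomal proteins were lower. The precision of each value is limited by 3 pools a group and by totals from 12800136 counts a library.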
